A study of Homo sapiens with 6 samples.

Results

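SU-CCS-1 is a cell line established from a clear cell sarcoma and holds the EWSR1::ATF1 fusion, and its control libraries were described by their gene levels alone. They were chosen by their sample labels and are 2 of the 6 RNA-seq libraries of the series, and no level was compared with a knockdown. Both control libraries came from cells kept in RPMI-1640 with 10% serum on non-treated plastic. For transfection the cells received 5 pmol of the negative control siRNA with a lipid reagent in Opti-MEM medium, for 48 h. A serum content for that step is not given. Each value is thus a level in transfected cells. The other 4 libraries received siRNA against the fusion and were not used, and the question here was which genes the fusion-positive cells express before the fusion is lowered. The cells are 1 line from 1 tumor, and the labels do not say whether the replicates were separate cultures, so the spread between them may be technical.

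Clear cell sarcoma arises in tendons and aponeuroses and shares with melanoma the expression of melanocytic genes. Its fusion joins the amino-terminal part of EWSR1 to the DNA-binding part of ATF1, a member of the CREB family, which binds the cAMP response element. In pigment cells, SOX10 and the cAMP pathway act on MITF, the transcription factor that in turn acts on the genes of the melanosome, the organelle in which pigment is made.

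The counts summed to 6666976 in control replicate 1 and 7599305 in control replicate 2. Levels are given as CPM, a count scaled to a library total of 1000000, and, where genes are compared with each other, as TPM, counts per exon length scaled to the same sum of 1000000 in each library. Values are the mean ± SD over the 2 libraries unless both are given, with replicate 1 before replicate 2. A gene was counted as expressed from 1 CPM in both libraries, and 3 counts or fewer in both, at most 0.450 and 0.395 CPM, was taken as not told from 0. Intervals and this limit cover counting error only, since reads without molecular identifiers are not independent molecules. Of 18118 genes, 13950 (77.0%) were expressed by this rule, 2318 (12.8%) had 100 CPM or more in both libraries, 1004 had 3 counts or fewer in both, and 3164 lay in between. The median over all genes was 13.8 CPM and 12.1 TPM, and the median of the 13010 nuclear protein-coding genes was 19.4 TPM. The coefficient of variation between the libraries beyond counting error was 0.0965 over 13241 genes. With 1 group no test between groups exists, and a gene called higher than another below is higher in both libraries unless the libraries are said to overlap.

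A total of 20 gene lists with 748 distinct genes was examined, of which 417 genes had a row in the counts used here. For the other 331 genes no value exists, neither a low level nor a 0, and they are named as having no row. Beside the 77.0% of all genes, the expressed share of the members ran from 100% of the 11 genes of the fusion partners and the CREB family and 91.5% of the 47 cell cycle and tumor suppressor genes down to 8.70% of the 23 skeletal muscle genes, 8.70% of the 23 blood cell genes and 0 of the 14 endothelial genes. Every list but those of the fusion partners and CREB family and of the cell cycle and tumor suppressor genes lay below 77.0%. Members without a row stay in these denominators, whereas the share of all genes was taken over genes with a row, so the shares are not on equal terms.

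**Figure D1:**
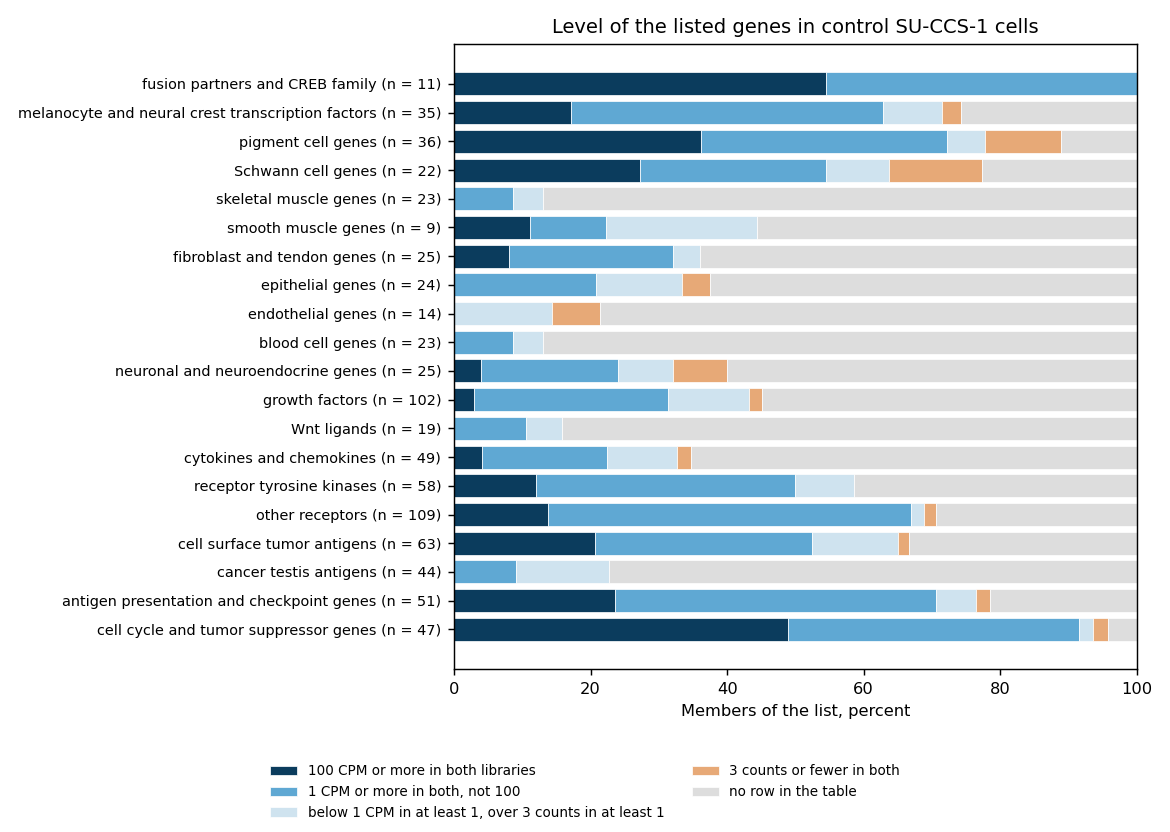
Each bar splits the members of a gene list, in percent of the members on the horizontal axis, by their level in both control libraries, with the number of members after the list's name. The darkest segments are longest for the fusion partners and CREB family, the cell cycle and the pigment cell genes, and grey segments, genes with no row, make up most of the muscle, endothelial, blood and Wnt lists.

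The transcripts of highest CPM in the control libraries included MALAT1, a nuclear long noncoding RNA, and the messengers of the mitochondrial genome. RN7SL1, the RNA of the signal recognition particle, and nuclear genes of translation, glycolysis and protein folding were also among them. The libraries were made from polyadenylated RNA, so levels of RNAs without a poly(A) tail need not follow their amounts in the cells. MALAT1 stood at 14080.0 and 13813 CPM, MT-CO1, a subunit of cytochrome c oxidase, at 12402 and 10534 CPM, and RN7SL1 at 12405 and 8489 CPM. The other mitochondrial messengers among the 15 genes of highest CPM were MT-ND4, MT-CO2, MT-ND5, MT-CO3 and MT-ND1, the last at 4872 and 3534 CPM. All 6 of these mitochondrial genes and RN7SL1 were higher in replicate 1, and MALAT1 differed little. The 10 genes of highest CPM took 7.53% of the counts of replicate 1 (95% exact interval 7.51 to 7.55) and 6.15% of those of replicate 2 (6.14 to 6.17), and the mitochondrially encoded genes took 5.33% and 3.96%. Ribosomal protein genes held 1.96% and 1.91%. These shares rest on an alignment without a model of splicing and an unknown treatment of reads that fit several genes. They need not follow the amounts in the cells.

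The 7 nuclear protein-coding genes among the 15 highest by CPM included a hormone and a kinase subunit beside housekeeping genes. EEF1A1, the elongation factor that brings transfer RNA to the ribosome, had 3731 ± 66.6 CPM, GAPDH of glycolysis 3082 ± 169 CPM, and HSP90AB1, a chaperone, 3026 ± 157 CPM. PRKAR1A (ENSG00000108946, chromosome 17 from 68511780 to 68551319 of hg38), the regulatory subunit that holds protein kinase A inactive until cAMP binds it, had 3097 and 3329 CPM. By length, PRKAR1A stood at 899 ± 116 TPM and place 49 among nuclear protein-coding genes. STC1 (ENSG00000159167, chromosome 8 from 23841929 to 23854806), which encodes the secreted glycoprotein hormone stanniocalcin 1, had 2762 and 3132 CPM. WARS1, the tryptophanyl-tRNA synthetase, stood at 2658 ± 479 CPM and was higher in replicate 2.

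Per exon length, RN7SL1 (121532 ± 22909 TPM) and its copy RN7SL3 (27101 ± 7391 TPM) led, followed by 12 mitochondrial messengers, among them MT-CO2, MT-CO1, MT-CO3, MT-ND4L, MT-ATP6, MT-ND2, MT-ATP8, MT-CYB and MT-ND3, and by MALAT1 (4696 ± 305 TPM). RN7SL genes took 17.2% and 13.0% of the TPM, and mitochondrial genes 20.01% and 16.5%, so a lower share of the TPM was left for nuclear genes in replicate 1. RN7SL copies are nearly identical, and their own levels are uncertain. Among nuclear protein-coding genes alone, an order added after the values were seen, GAPDH was the highest at 4511 ± 107 TPM, then HSP90AB1 at 3562 ± 94.9 TPM and STC1 at 2515 ± 419 TPM. MT1G, a metallothionein that binds zinc and copper, stood at 1954 ± 496 TPM and place 7 of 13010. PTGES, which makes prostaglandin E2, stood at 1334 ± 128 TPM and place 17, and SLC7A5, the large neutral amino acid transporter, at 1219 ± 141 TPM and place 22.

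**Figure D2:**
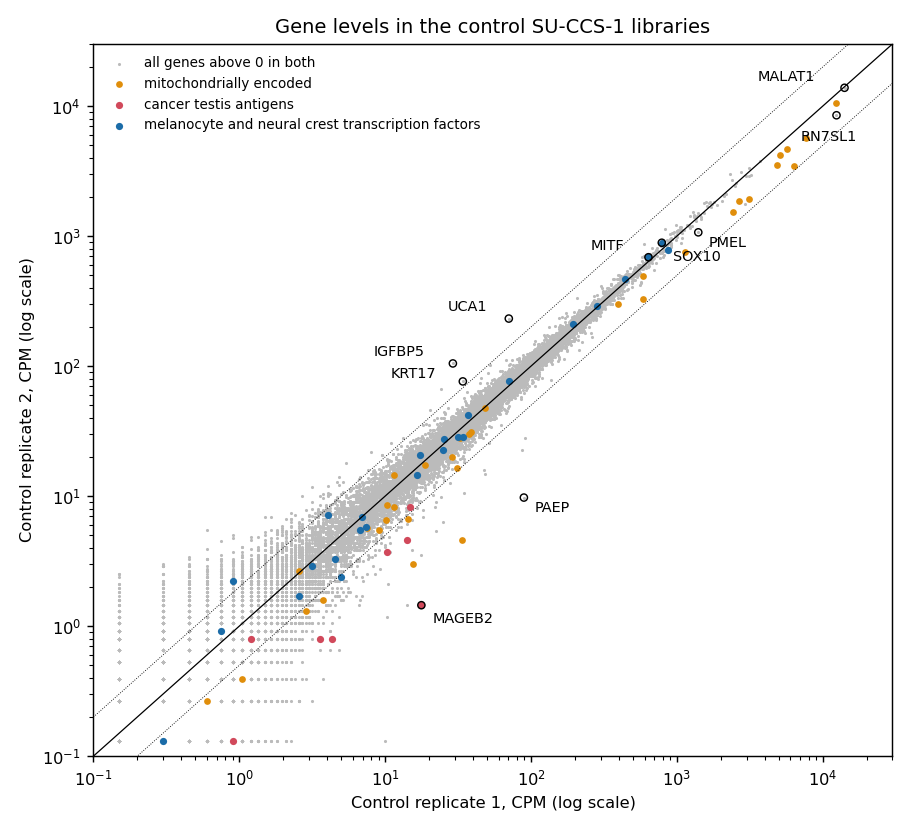
Each point is a gene, with its CPM in control replicate 1 on the horizontal and in control replicate 2 on the vertical axis, both on a log scale, for genes above 0 in both. The solid line marks equal levels and the dotted lines a 2-fold difference, and mitochondrially encoded genes and cancer testis antigens (colored) lie mostly below the solid line, whereas SOX10 and MITF lie near it.

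The genes that make up the fusion and its family were all expressed, 11 of 11, with 6 of them at 100 CPM or more. Of all genes, 77.0% were expressed and 12.8% had 100 CPM or more. Counts on EWSR1 and ATF1 pool the fusion transcript with the unrearranged alleles. ATF1 (ENSG00000123268, chromosome 12 from 50763710 to 50821162) had 549 and 680 counts, or 85.9 ± 5.05 CPM. EWSR1 (ENSG00000182944, chromosome 22 from 29268009 to 29300525), an RNA-binding protein, had 198 and 239 CPM. By length, ATF1 stood at 107 ± 14.6 TPM and EWSR1 at 74.8 ± 15.6 TPM, and the libraries of these genes do not overlap.

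Among the proteins that act with ATF1 at the cAMP response element, CREM (ENSG00000095794, chromosome 10 from 35126791 to 35212958), which gives activator and repressor isoforms, had 126 and 142 CPM and 83.1 ± 13.6 TPM, and CREB1 had 40.9 and 47.1 CPM and 12.8 ± 2.26 TPM. With the longest transcript CREM had 132 TPM. Both CREM and ATF1 were thus above CREB1 by length in both libraries. The coactivators CREBBP (86.6 ± 11.6 TPM) and EP300 (56.2 ± 8.19 TPM) and the CREB coactivators CRTC2, CRTC3 and CRTC1 (28.5, 25.3 and 6.61 TPM) were expressed as well, with TAF15 at 26.7 TPM.

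The letters TGACGTCA, the full cAMP response element, read the same on both strands and were searched in the RefSeq promoters of GRCh38.p14, each 250 bases before to 50 after an annotated start. They were found at 81 of 1902 genes (4.26%) at 100 CPM or more, at 312 of 8152 (3.83%) between 1 and 100 CPM, at 28 of 1269 (2.21%) of the other genes of the table and at 614 of 27305 (2.25%) of all genes with a promoter. For comparison, an E-box of the kind that MITF binds, either the letters CATGTG on either strand or the palindrome CACGTG, was found at 24.03%, 19.9%, 22.7% and 20.9% of the same sets. These shares count a gene once whichever of its starts held the letters, and genes with more annotated starts had more bases searched. A match is a description of the letters and says nothing about binding.

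Promoters of 4 expressed genes that hold the element are shown, a selection and not a sample of all such genes. Other expressed genes with the element included AREG (2.69 CPM), FN1 (18.6 CPM), NF1 (275 CPM) and HSP90AB1 (3026 CPM). The 4 promoters shown belong to PRKAR1A of the cAMP pathway, the pigment cell regulator MITF, the surface antigen MCAM and the CREB family member CREM. The element is in capitals, each run is read from 5′ to 3′ on the strand of the gene, and coordinates are of GRCh38.p14.
PRKAR1A chr17:68512180-68512479 (+ strand): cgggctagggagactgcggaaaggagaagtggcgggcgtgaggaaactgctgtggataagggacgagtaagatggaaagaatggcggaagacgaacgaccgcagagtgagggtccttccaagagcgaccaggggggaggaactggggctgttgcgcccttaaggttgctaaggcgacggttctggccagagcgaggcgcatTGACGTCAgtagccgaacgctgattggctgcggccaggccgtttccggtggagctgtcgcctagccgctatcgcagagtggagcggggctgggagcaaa
MITF chr3:69936342-69936641 (+ strand): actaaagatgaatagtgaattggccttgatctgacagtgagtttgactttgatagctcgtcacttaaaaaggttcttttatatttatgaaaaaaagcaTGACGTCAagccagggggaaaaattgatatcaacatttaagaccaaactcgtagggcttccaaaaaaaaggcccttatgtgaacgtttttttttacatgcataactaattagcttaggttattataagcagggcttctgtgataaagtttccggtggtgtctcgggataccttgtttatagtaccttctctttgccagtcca
MCAM chr11:119317081-119317380 (− strand): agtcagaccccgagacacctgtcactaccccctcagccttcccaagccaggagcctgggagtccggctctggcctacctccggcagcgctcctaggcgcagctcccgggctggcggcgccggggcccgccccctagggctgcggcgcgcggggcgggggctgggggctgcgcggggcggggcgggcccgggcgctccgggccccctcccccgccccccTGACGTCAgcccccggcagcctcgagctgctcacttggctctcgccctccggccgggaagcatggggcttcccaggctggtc
CREM chr10:35195652-35195951 (+ strand): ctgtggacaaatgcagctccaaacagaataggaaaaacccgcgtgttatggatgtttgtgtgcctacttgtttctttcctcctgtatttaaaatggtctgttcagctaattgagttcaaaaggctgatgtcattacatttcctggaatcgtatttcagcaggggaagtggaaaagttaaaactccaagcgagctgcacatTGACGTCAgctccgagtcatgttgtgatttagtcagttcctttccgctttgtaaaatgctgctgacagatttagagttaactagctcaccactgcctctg
The element began 49 bases upstream of the start in PRKAR1A, 152 in MITF, 32 in MCAM and 50 in CREM. It was present at 2 of 5 annotated starts of PRKAR1A, 1 of 3 of MITF, 2 of 7 of CREM and the only start of MCAM. Gene counts do not say which start the cells used.

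The transcription factors of the melanocyte and its precursor, the neural crest, were expressed at 22 of 35 list members (62.9%), beside 77.0% of all genes. Among these factors, 3 ranked among the 250 highest of 13010 nuclear protein-coding genes by TPM. SOX10 (ENSG00000100146, chromosome 22 from 37970686 to 37987422), the neural crest factor kept on in melanocytes and Schwann cells, had 787 and 888 CPM. IRF4 (ENSG00000137265, chromosome 6 from 391739 to 411443), which acts with MITF on the pigment gene TYR, had 868 and 787 CPM. MITF (ENSG00000187098, chromosome 3 from 69739456 to 69968336) had 638 and 687 CPM. In such bulk samples, fewer cells of a type and less RNA per cell cannot be told apart. The levels were close between the libraries, with ratios of replicate 2 to replicate 1 of 1.13 (95% exact interval 1.09 to 1.17), 0.906 (95% exact interval 0.874 to 0.9399) and 1.08 (95% exact interval 1.03 to 1.12).

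Per exon length the order was SOX10 (612 ± 99.9 TPM, place 76), IRF4 (486 ± 4.41 TPM, place 117), MITF (314 ± 41.1 TPM, place 237), TFAP2A (195 ± 23.9 TPM), ETS1 (142 ± 14.01 TPM) and ALX1 (104 ± 17.4 TPM), with no overlap of the libraries between neighbours. TFAP2A and ETS1 act in early neural crest, and ALX1 in the mesenchyme of the face. Among the factors of epithelial-to-mesenchymal transition and crest migration, SNAI1, SNAI2 and ZEB2 had 54.7, 32.1 and 27.2 TPM, and TWIST2, TWIST1 and ZEB1 10.8, 10.7 and 7.77 TPM. The place of ZEB2 rests on the gene length used, since with the longest transcript it had 59.0 TPM, above SNAI1 at 43.5 TPM and SNAI2 at 29.6 TPM. ZEB2 was above ZEB1 in both libraries. POU3F2 (22.5 TPM), TFE3 (19.7 TPM), TFAP2C (18.1 TPM) and SOX6 (12.9 TPM) lay on either side of the median of nuclear protein-coding genes, and MSX2, MSX1, SOX8, SOX9, LEF1 and TFEB between 1.10 and 10.9 TPM. With the longest transcript TFAP2A had 332 TPM and SOX6 22.1 TPM.

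Other crest factors of the same list were low or had no row, which gives no value. FOXD3, an early crest factor that represses MITF, had 2 and 1 counts, not told from 0. SOX5, ISL1 and EGR2 had 6 and 17, 5 and 7 and 6 and 0 counts and were below 1 CPM in at least 1 library. SOX9, which precedes SOX10 in the crest and marks cartilage, passed the level for an expressed gene with 21 and 22 counts, against 5248 and 6749 counts on SOX10. PAX3, TFAP2B, TFAP2E, TFEC, ZIC1, HAND2 and NEUROG1 had no row.

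**Figure D3:**
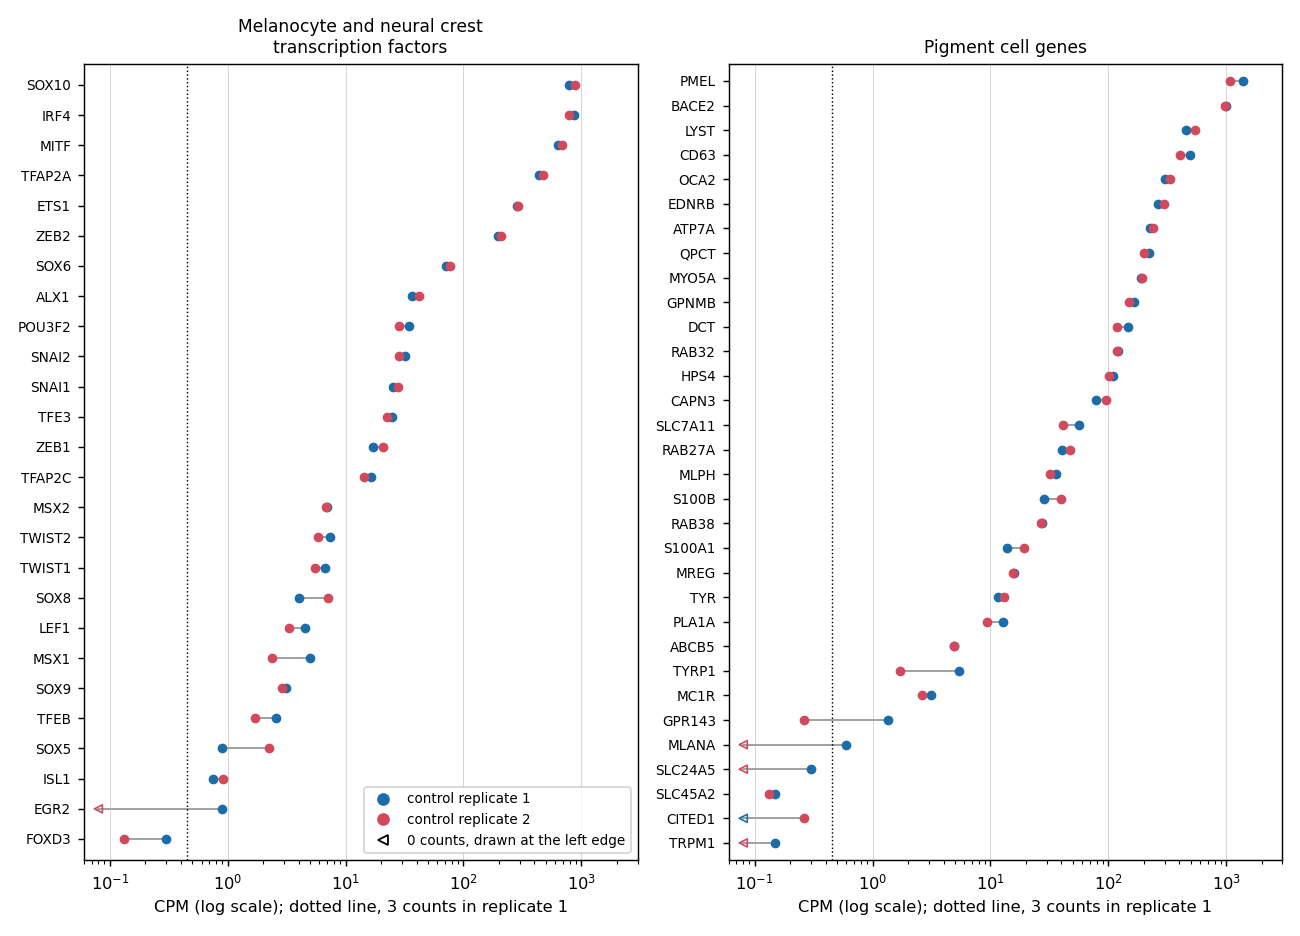
CPM on a log scale in control replicate 1 (blue) and replicate 2 (red) of the transcription factors (left) and pigment cell genes (right) that had a row, in order of mean CPM. The dotted line marks 3 counts in replicate 1, open triangles mark 0 counts, and SOX10, IRF4, MITF and PMEL stand at the top with close libraries, whereas TYRP1, GPR143 and MLANA spread widely at the bottom.

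Of 36 pigment cell genes, 26 (72.2%) were expressed, beside 77.0% of all genes. At 100 CPM or more were 13 of them, beside 12.8% of all genes. PMEL (ENSG00000185664, chromosome 12 from 55954105 to 55973317), which forms the fibrils of the melanosome and is the target of the HMB45 antibody, had 1400.2 and 1068 CPM, and its 1173 ± 132 TPM put it at place 26 of 13010. Replicate 1 was above replicate 2, with a ratio of 0.762 (95% exact interval 0.740 to 0.786). CD63, a tetraspanin of melanosomes and other endosomes, followed at 647 ± 32.9 TPM, or 1010.5 TPM with the longest transcript. RAB32 (393 ± 27.6 TPM), which traffics cargo to the melanosome, and the protease BACE2 (363 ± 23.6 TPM), which processes PMEL, overlapped. OCA2, the melanosome anion channel, was at 344 ± 46.9 TPM, QPCT, a glutaminyl cyclase, at 276 ± 3.05 TPM, and EDNRB, the endothelin receptor of melanoblasts, at 175 ± 27.8 TPM.

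The enzymes that make melanin were lower than the genes just given, which are the highest members of the list. They were not below all trafficking genes, since MLPH, MYO5A and RAB27A, given below, had a lower mean TPM than DCT. DCT (ENSG00000080166, chromosome 13 from 94436811 to 94479682), the dopachrome tautomerase, had 146 and 118 CPM and 61.0 ± 4.46 TPM. TYR (ENSG00000077498, chromosome 11 from 89177875 to 89295759), the tyrosinase that starts the pathway, had 77 and 99 counts, or 11.5 and 13.0 CPM, and 16.7 ± 2.72 TPM. TYRP1 (ENSG00000107165, chromosome 9 from 12685439 to 12710285) had 36 and 13 counts, with a ratio of 0.317 (95% exact interval 0.154 to 0.612), and the interval leaves out 1. All 3 enzymes were below PMEL in both libraries by TPM. TYRP1 passed the level for an expressed gene with few counts.

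Other melanosome genes filled the range between these levels. GPNMB, a glycoprotein related to PMEL, had 92.7 TPM, RAB38, a relative of RAB32, 66.9 TPM, S100B, the calcium-binding protein used to diagnose the tumor, 66.6 ± 20.5 TPM, and LYST, a regulator of lysosome size, 62.6 TPM. The copper transporter ATP7A had 29.1 TPM and the cystine transporter SLC7A11 17.7 TPM. MLPH, MYO5A and RAB27A, which together carry melanosomes along actin, stood at 16.1, 14.9 and 13.6 TPM. CAPN3, S100A1, PLA1A, HPS4 and MREG ranged from 15.4 to 24.1 TPM, and ABCB5 had 1.96. The levels of several of these genes rest on the length used, since with the longest transcript MYO5A had 43.8 TPM, RAB27A 26.4 TPM and MLPH 25.4 TPM. By that length ATP7A had 75.8 TPM, HPS4 42.9 TPM and CAPN3 38.1 TPM, and GPNMB and LYST had 158 TPM and 99.95 TPM. By CPM, PMEL, BACE2, LYST, CD63, OCA2, EDNRB, ATP7A, QPCT, MYO5A, GPNMB, DCT, RAB32 and HPS4 were the 13 at 100 or more.

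Several textbook melanocyte antigens and receptors lay at the bottom. MLANA, the MART-1 antigen, had 4 and 0 counts, and GPR143, a melanosome receptor, 9 and 2 counts. The transporters SLC45A2 (1 and 1 counts) and SLC24A5 (2 and 0 counts), the channel TRPM1 (1 and 0 counts) and the cofactor CITED1 (0 and 2 counts) were not told from 0. For CITED1, 38.6% of its exon bases lie in exons of another gene on the same strand. MC1R, the receptor of melanocyte-stimulating hormone, had 21 and 20 counts and passed 1 CPM. On the same strand, however, 11.5% of its exon bases lie in exons of TCF25 and 25% in exons of another gene. On the other strand, 18.9% lie in exons of a further gene. KIT, BCAN, APOD and MYRIP had no row. Of the 7 genes taken as defining melanocytic cells (MITF, SOX10, TYR, TYRP1, DCT, PMEL and MLANA), 6 were expressed, and the exception was MLANA.

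Schwann cells share the crest origin, and 12 of 22 of their list members (54.5%) were expressed, beside 77.0% of all genes. CRYAB, a small heat shock protein, had 1271 and 1199.7 CPM and 988 ± 37.0 TPM, and 13.6% of its exon bases lie in exons of HSPB2 on the other strand. CDH19, a cadherin of Schwann cell precursors, had 183 and 162 CPM and 88.0 ± 0.419 TPM, and ITGB8, an integrin subunit, 207 ± 29.1 TPM. ERBB3, the neuregulin receptor, POU3F1, a factor of promyelinating cells, MBP and PMP22 stood at 61.4, 58.3, 30.2 and 27.1 TPM. PMP2, a lipid-binding protein of myelin, had 0 and 1 counts, not told from 0. NGFR, the receptor p75, had 4 and 42 counts, a ratio of 9.21 (95% exact interval 3.34 to 35.4). GAP43, L1CAM, MAG, GFAP and SCN7A had no row.

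Genes that define other tissues were mostly low or without a row, while 77.0% of all genes were expressed. Of 23 skeletal muscle genes, TNNT1 (42 and 29 counts), a slow troponin, and NEB (26 and 29 counts) were expressed, TTN had 5 and 1 counts, and MYOD1, MYOG, DES and ACTA1 had no row. Of 9 smooth muscle genes, CALD1 (93.7 ± 11.9 TPM) and SMTN (11.03 ± 2.20 TPM), which other cells use as well, were expressed, at 145 TPM and 17.6 TPM with the longest transcript, and ACTA2 had 16 and 3 counts. Endothelial genes had no expressed member of 14, with 11 and 7 counts on CD34, 6 and 3 counts on CDH5 and 3 and 3 counts on VWF, and no row for PECAM1. Among 23 blood cell genes LYZ (29 and 50 counts) and CD4 (88 and 102 counts) were expressed, CD68 had 6 and 2 counts, and PTPRC, CD3E and HBB had no row. For CD68, 81.6% of its exon bases lie in exons of another gene on the same strand. How reads on such shared bases were counted is not known, so its low count need not be a low level. The summed level of the blood list was 18.4 CPM in replicate 1 and 20.3 CPM in replicate 2, and that of the endothelial list 3.0 and 1.71 CPM.

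Of 25 fibroblast and tendon genes 8 (32.0%) were expressed, against 77.0% of all genes, although the tumor arises beside tendons. VIM, the intermediate filament of mesenchymal cells, had 366 ± 10.04 TPM, or 564 TPM with the longest transcript, and COL5A1, a fibril collagen, 143 ± 33.4 TPM. COL6A1 (18.4 TPM) was lower, and FN1 and FBN1 stood at 3.83 and 3.11 TPM. The tendon factor SCX had 10 and 8 counts, COL1A1 11 and 15 counts and LUM 12 and 6 counts. COL3A1, DCN, TNMD, PDGFRA and PDGFRB had no row. COL1A1, the main fibril collagen of tendon, was thus at 1.65 and 1.97 CPM, against 401 and 501 CPM for COL5A1.

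Of 24 epithelial genes 5 (20.8%) were expressed, beside 77.0% of all genes. Of the 5 that define epithelium, KRT8 had 5 and 20 counts and EPCAM, CDH1, KRT18 and KRT19 had no row. KRT17, a keratin of basal and stressed epithelium, had 34.0 and 76.2 CPM, with a ratio of 2.24 (95% exact interval 1.92 to 2.62). DSP, desmoplakin, had 24.3 and 66.3 CPM, with a ratio of 2.73 (95% exact interval 2.28 to 3.28), and ESRP1, an epithelial splicing regulator, 19.3 and 13.8 CPM. The summed level of the list was 82.2 CPM in replicate 1 and 164 CPM in replicate 2, and what moved KRT17 and DSP was not tested. Of 25 neuronal and neuroendocrine genes 6 were expressed, led by MAP2 (40.9 TPM), SCG2 (35.0 TPM) and NEFL (33.6 TPM), with INSM1 at 15 and 25 counts, SYP at 3 and 1, SCG5 at 3 and 3 and no row for CHGA. ENO2 and TUBB3 were at 3.69 and 1.16 TPM. On the same strand, 51.4% of the exon bases of SCG5 lie in exons of ARHGAP11A-SCG5, and 21.3% of those of TUBB3 in exons of another gene.

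Of 102 growth factors, 32 (31.4%) were expressed, 3 of them at 100 CPM or more, beside 77.0% and 12.8% of all genes, and 56 had no row. FGF5 (ENSG00000138675, chromosome 4 from 80266639 to 80336680), a fibroblast growth factor known for ending the growth phase of hair, had 329 and 347 CPM. By length it stood at 199.6 ± 23.4 TPM, above GRN, the secreted progranulin, at 174 ± 3.79 TPM, and above GDF15, a stress-induced TGF-beta family hormone, at 156 ± 18.9 TPM, with no overlap of libraries. The order of the leading pair rests on the gene length used, since with the longest transcript FGF5 had 178 TPM and GRN 229 TPM.

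BMP2 (114 ± 0.178 TPM), a bone morphogenetic protein, VEGFB (89.6 ± 7.63 TPM), and HBEGF (81.8 ± 2.82 TPM), a ligand of EGFR and ERBB4, came next. CCN1 had 71.8 TPM, TGFB1 55.6 TPM, NRTN, a ligand of the GDNF family, 52.4 TPM, CSF1, the macrophage growth factor, 37.7 TPM and FGF9 33.4 TPM. VEGFA, the principal angiogenic factor, had 21.0 and 27.0 CPM and 5.88 ± 1.49 TPM, below VEGFB in both libraries. The remaining 20 expressed factors ranged from 0.937 TPM (EGF) to 18.2 TPM (PROS1). FGF14 (3 and 0 counts) and NRG3 (0 and 0 counts) were not told from 0, and HGF, IGF2, PDGFA, PDGFB, GDNF, POMC and EDN1 to EDN3 had no row. Of 19 Wnt ligands, 2 (10.5%) were expressed, WNT4 (27 and 24 counts) and WNT11 (9 and 12 counts), beside 77.0% of all genes. WNT3 had 10 and 1 counts.

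Of 58 receptor tyrosine kinases, 29 were expressed and 7 had 100 CPM or more. MERTK (ENSG00000153208, chromosome 2 from 111898607 to 112029561), the receptor of PROS1 and GAS6 that mediates clearance of dying cells, had 601 and 701 CPM and stood at place 93 of 13010 with 556 ± 104 TPM. FGFR1 (ENSG00000077782, chromosome 8 from 38400215 to 38468834) had 1456 and 1401 CPM and 292 ± 14.9 TPM, place 266. With the length of the longest transcript, FGFR1 had 641 TPM and MERTK 477 TPM, so their order turned. The next receptors, MET (71.3 ± 3.97 TPM), ERBB3 (61.4 ± 18.5 TPM) and DDR1 (61.2 ± 3.23 TPM), were lower than both under either length and overlapped among themselves in merged length, whereas with the longest transcript DDR1 had 107 TPM and MET 59.6 TPM.

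RYK (42.0 TPM), EPHB4 (37.9 TPM), IGF1R (36.5 TPM), EPHA2 (33.5 TPM) and FGFR3 (31.4 TPM) followed. NTRK2, the BDNF receptor, had 174 and 258 CPM and 23.2 ± 8.09 TPM, and it was higher in replicate 2. EGFR and ERBB2 were at 6.12 and 6.18 TPM, below ERBB3 in both libraries. ALK had 31 and 75 counts, with a ratio of 2.12 (95% exact interval 1.38 to 3.34). Of the TAM family, TYRO3 had 26.7 and 26.8 CPM and AXL 8 and 3 counts, below MERTK in both libraries. RET (5 and 6 counts) and ERBB4 (0 and 6 counts) were under 1 CPM, and KIT, PDGFRA, PDGFRB, CSF1R, KDR, FGFR2 and NTRK3 had no row.

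**Figure D4:**
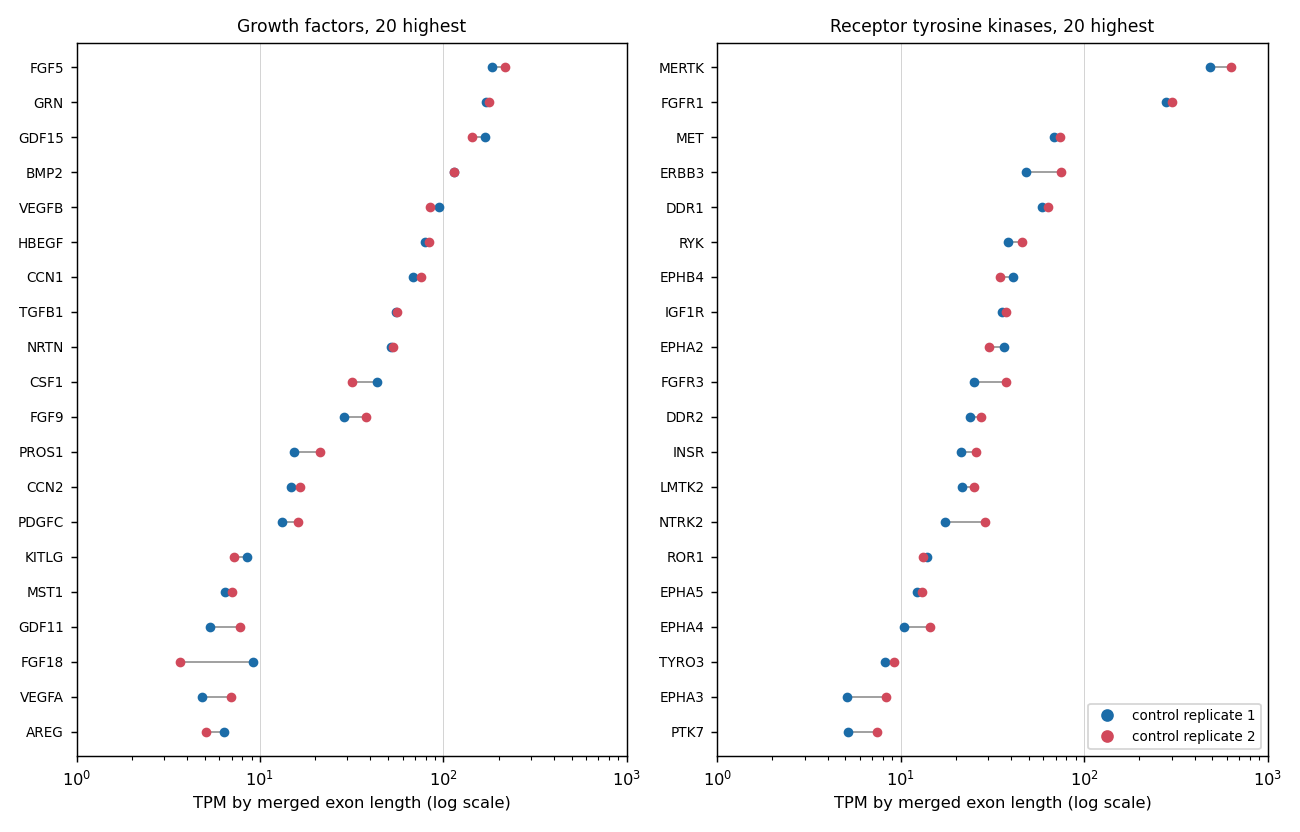
TPM by merged exon length, on a log scale, of the 20 highest growth factors (left) and receptor tyrosine kinases (right) in control replicate 1 (blue) and replicate 2 (red). MERTK and FGFR1 stand apart from the other kinases, between 281 and 630 TPM, while the growth factors decline in small steps from 216 TPM of FGF5 in replicate 2.

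Of 109 other receptors, 73 were expressed, a share of 67.0%, and 15 had 100 CPM or more, beside 77.0% and 12.8% of all genes. ACKR3, a chemokine receptor that binds and removes CXCL12, led at 421 ± 66.0 TPM, followed by TNFRSF10B, a death receptor of TRAIL, at 292 ± 11.9 TPM, and the adhesion receptor ADGRG1 at 268 ± 17.8 TPM. With the longest transcript ADGRG1 had 451 TPM and ACKR3 343 TPM. SORT1, a sorting receptor of the neurotrophin and progranulin pathways, EDNRB and NRP2, a coreceptor of semaphorins, had 185, 175 and 170.5 TPM, and NRP2 had 282 TPM with the longest transcript. Receptors that signal through cAMP included ADORA2B, an adenosine receptor, at 34.0 ± 3.25 TPM, whereas MC2R to MC5R had no row. LPAR3 (1 and 3 counts) and LPAR4 (0 and 0 counts) were not told from 0.

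Of 49 cytokines and chemokines, 11 (22.4%) were expressed, beside 77.0% of all genes. MIF, the macrophage migration inhibitory factor, had 275 and 295 CPM and 1374 ± 174 TPM, place 16 of 13010, and 94.1% of its exon bases lie in exons of the antisense gene MIF-AS1, which had 2.14 CPM of its own. CXCL12 had 134 and 143 CPM and 79.4 ± 9.56 TPM, and TNFSF10, which encodes TRAIL, 58.2 and 67.1 CPM and 64.3 ± 11.5 TPM. LIF, CNTF and CCL28 stood at 12.7, 9.83 and 9.13 TPM. For CNTF, 38.5% of its exon bases lie in exons of ZFP91-CNTF on the same strand. TSLP had 1 and 3 counts, and IL1A, IL1B, CCL2, CXCL10, CSF2 and TNF had no row.

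Ligands and their receptors in the same cells were set side by side from these lists, with no measure of signaling. FGF5 (199.6 TPM) and FGFR1 (292 TPM) were both high. For MERTK (556 TPM), PROS1 was at 18.2 TPM and GAS6 at 5 and 7 counts. CXCL12 (79.4 TPM) stood beside ACKR3 (421 TPM), while its signaling receptor CXCR4 had no row. TRAIL (TNFSF10, 64.3 TPM) stood beside its receptor TNFRSF10B (292 TPM), and TNFRSF10A had no row. LIF (12.7 TPM) had both receptor chains expressed, LIFR at 4.82 TPM and IL6ST at 80.2 TPM, and IL6R was at 71.6 TPM with IL6 at 1.48 TPM.

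For several other pairs 1 partner had no row, which gives no value for it. KITLG (7.87 TPM), CSF1 (37.7 TPM) and MIF were expressed, and KIT, CSF1R and CD74, the receptor component of MIF, had no row. NRTN (52.4 TPM) was expressed with no row for its coreceptor GFRA2 and 5 and 6 counts on RET. EDNRB (175 TPM) and MET (71.3 TPM) were expressed with no row for the endothelins or for HGF. ERBB3 (61.4 TPM) had rows for both sides, with its ligands NRG1 and NRG2 at 2.02 and 2.47 TPM. Serum, which the routine culture medium held, can bring ligands that RNA does not show.

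Of 63 cell surface tumor antigens, 33 (52.4%) were expressed and 13 had 100 CPM or more, beside 77.0% and 12.8% of all genes. Below PMEL and CD63, CD44, the hyaluronan receptor, had 1076 and 960.0 CPM and 357 ± 0.668 TPM. SLC39A6, a zinc transporter, had 228 ± 1.11 TPM, and SLC3A2, the heavy chain that partners SLC7A5, 181 ± 9.34 TPM. CD70 (ENSG00000125726, chromosome 19 from 6583183 to 6604103), the ligand of CD27 on lymphocytes, had 72.9 and 75.8 CPM and 171 ± 18.1 TPM. MCAM (ENSG00000076706, chromosome 11 from 119308529 to 119321521), the melanoma cell adhesion molecule whose promoter is printed above, had 364 and 349 CPM and 169 ± 8.30 TPM, and the libraries of SLC3A2, CD70 and MCAM overlapped. With the longest transcript SLC3A2 had 323 TPM, above SLC39A6 at 188 TPM.

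Among further antigens that antibodies or engineered cells are aimed at, GPNMB had 92.7 TPM, TFRC 85.3 TPM, CD276 (B7-H3) 78.7 TPM, CD47 74.7 TPM, MELTF, melanotransferrin, 73.0 TPM, and MET and ERBB3 the levels given with the kinases. CSPG4, the melanoma chondroitin sulfate proteoglycan, had 6 and 36 counts, a ratio of 5.26 (95% exact interval 2.20 to 15.3). For the gangliosides GD2 and GM2, the synthase B4GALNT1 had 21 and 17 counts, and ST8SIA1, which makes GD3, 1 and 1 counts, not told from 0. NCAM1 had 5 and 2 counts and DLL3 10 and 5 counts. EPCAM, FAP, GPC3, MSLN, TNFRSF8 and IL13RA2 had no row.

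Cancer testis antigens are genes normally active mainly in the testis. They had 4 expressed members of 44, all of the MAGE family, beside 77.0% of all genes, and 34 had no row. MAGEA6 had 99 and 63 counts, MAGEB2 118 and 11 counts, MAGEA12 94 and 35 counts and MAGEA3 69 and 28 counts. All 10 members with a row were higher in replicate 1, and their summed level was 69.7 CPM there and 20.5 CPM in replicate 2. The ratio of replicate 2 to replicate 1 was 0.0818 (95% exact interval 0.0397 to 0.152) for MAGEB2, 0.327 (95% exact interval 0.215 to 0.486) for MAGEA12 and 0.558 (95% exact interval 0.4005 to 0.773) for MAGEA6. In replicate 1 alone 9 members reached 1 CPM, so the count of 4 rests on replicate 2. MAGEA3, MAGEA6 and MAGEA12 are close copies whose reads the counting may have split. PRAME, CTAG1B, which encodes NY-ESO-1, and MAGEA4 had no row.

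**Figure D5:**
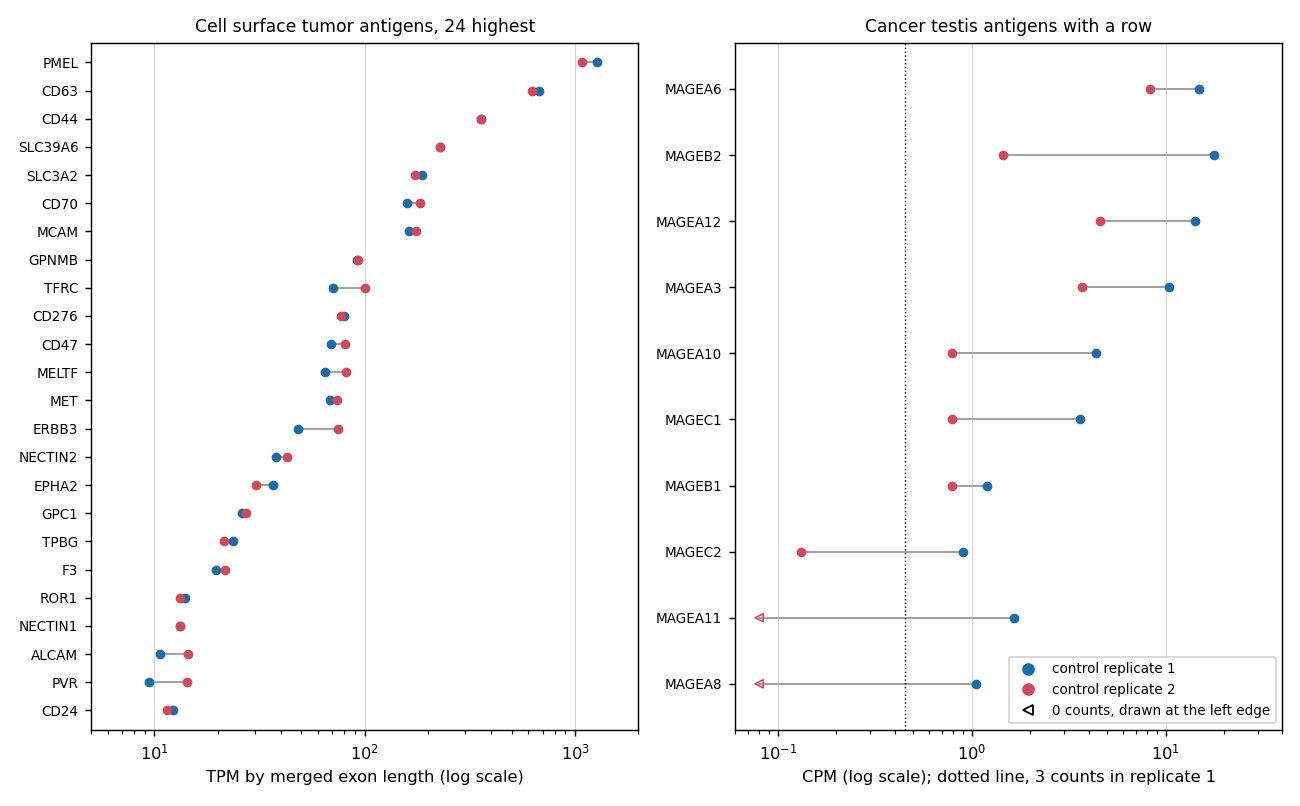
Left, TPM on a log scale of the 24 highest cell surface tumor antigens in control replicate 1 (blue) and replicate 2 (red). Right, CPM on a log scale of the 10 cancer testis antigens with a row, with 3 counts in replicate 1 as a dotted line and 0 counts as open triangles, and with the blue point right of the red one for all 10.

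Of 51 genes of antigen presentation and checkpoints, 36 (70.6%) were expressed and 12 had 100 CPM or more, beside 77.0% and 12.8% of all genes. LGALS3, galectin 3, had 1083 ± 80.3 TPM, the chaperone CALR 792 ± 64.9 TPM, and NT5E, which makes adenosine outside the cell, 285 ± 46.8 TPM. B2M, the light chain of class I molecules, had 315 and 286 CPM and 338 ± 3.54 TPM. The class I heavy chains HLA-C and HLA-B had 183 and 129 TPM, with 212 and 133 CPM for HLA-B, and reads of these variable and similar genes are counted with uncertainty. PDIA3, TAPBP, TAP1 and TAP2 of the peptide-loading complex had 180.4, 87.6, 69.1 and 13.6 TPM, and PDIA3 had 457 TPM with the longest transcript.

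Class II genes were low or without a row. HLA-DPB1 had 59 and 84 counts, HLA-DQB1 0 and 0 counts, CIITA, their transactivator, 2 and 5 counts, and HLA-DRA, HLA-DRB1 and CD74 had no row. CD274, which encodes PD-L1, had 10 and 5 counts, LGALS9 9 and 4 counts and IDO1 31 and 27 counts, while CD276 and CD47 were at 78.7 and 74.7 TPM. CD80, CD86 and PDCD1LG2 had no row.

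Of 47 cell cycle and tumor suppressor genes, 43 (91.5%) were expressed and 23 had 100 CPM or more, beside 77.0% and 12.8% of all genes. CCND1, the G1 cyclin, had 1308 and 1412 CPM and 1006 ± 133 TPM, place 38 of 13010, whereas CCND3 had 23.8 ± 3.42 TPM and CCND2 no row. CDK2 (454 ± 20.5 TPM), PCNA (299 ± 19.2 TPM) and MCM3 (222 ± 21.7 TPM) of replication followed, and the division markers TOP2A, BIRC5 and MKI67 stood at 194, 189 and 163 TPM. MYC had 193 and 217 CPM and 118 ± 19.2 TPM, MYCN 0 and 0 counts and MYCL no row.

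Inhibitors of the cell cycle and other tumor suppressors stood at mixed levels. CDKN1A, the inhibitor p21, had 223 and 152 CPM and 218 ± 41.8 TPM, and MDM2, a ubiquitin ligase, 531 and 480.4 CPM and 214 ± 1.55 TPM. CDKN2A had 22 and 25 counts, CDKN2B 34 and 55 counts, CDK4 159.9 ± 0.354 TPM and CDK6 5.43 ± 1.98 TPM. RB1 (102 TPM), NF1 (23.5 TPM), SMARCB1 (16.4 TPM) and BRAF (11.1 TPM) were expressed. TERT had 1 and 12 counts.

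Between the control libraries the levels differed little for most genes. Of 9779 genes with a mean of 10 CPM or more, 36 (0.368%) differed by more than 2-fold, 22 higher in replicate 1 and 14 in replicate 2, and the median size of the log2 ratio was 0.13. Among those higher in replicate 1, PAEP, a lipocalin first known from the endometrium, had 89.2 and 9.74 CPM, NLRP5, an oocyte gene, 24.7 and 6.32 CPM, and SLC9A3, a sodium and proton exchanger, 22.3 and 5.40 CPM. The small RNA genes RNU4-2 (17.5 and 3.55 CPM) and MT-TF (33.4 and 4.61 CPM) went the same way. Higher in replicate 2 were IGFBP5, an IGF binding protein, at 29.1 and 105 CPM, the long noncoding RNA UCA1 at 70.3 and 232 CPM, LY75, an endocytic receptor, at 5.40 and 17.9 CPM, the pseudogene CAP1P1 at 7.95 and 21.8 CPM, and DSP as given above. On the same strand, 41.1% of the exon bases of SLC9A3 lie in exons of PP7080. For LY75, 57% lie in exons of LY75-CD302 on the same strand.

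These differences were larger than counting error, with ratios of replicate 2 to replicate 1 of 0.109 (95% exact interval 0.0845 to 0.139) for PAEP, 0.255 (95% exact interval 0.181 to 0.354) for NLRP5, 3.60 (95% exact interval 3.07 to 4.23) for IGFBP5 and 3.30 (95% exact interval 2.98 to 3.66) for UCA1. The summed shares of the mitochondrial and of the RN7SL genes, and all 10 cancer testis antigens with a row, were higher in replicate 1, and the part of RNA quality or culture in these differences was not tested. Neither SOX10, MITF, FGFR1 nor MERTK was among the genes that differed by more than 2-fold.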

How the data were processed

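Polyadenylated RNA of SU-CCS-1 cells was sequenced as stranded paired reads. Alignment by the authors used BWA-MEM on hg38, which has no model of splicing, so reads across splice junctions can be clipped or lost. Reads per gene came from featureCounts 1.6.3, and the authors deposited these counts as they were, neither normalized nor pooled. The annotation, the strand setting and the treatment of reads that fit several genes are not given in the sources used here. Every one of the 18118 rows has at least 6 counts in at least 1 of the 6 libraries, and 2589 rows carry no symbol.

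Libraries were grouped by their sample labels. From the deposited counts, CPM used the library total, and TPM the merged exon length of GENCODE release 44, in which 18063 rows were found. Overlap of exons between genes was taken from the same annotation. Exact 95% intervals of shares and ratios used scipy 1.17.1 (Python 3.11.15), and the coefficient of variation was the square root of the common dispersion of edgeR 4.0.16 (R 4.3.3) with TMM scaling, an intercept alone and at least 10 counts in both libraries. Both steps were tested on simulated counts.

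Named were the 15 genes of highest CPM and of highest TPM, the expressed and the undetected transcription factors and pigment cell genes, the 6 highest members by TPM and the undetected defining members of each other list, the 5 genes in each direction that differed most between the libraries, EWSR1 and ATF1. Other genes were named after their values were seen, and some genes that the rule covers are not reported here. The genes to describe and the lists were chosen with earlier results of these data known. No test was run, since there is 1 group. Alternatives were other scalings, library totals, levels, gene lengths and each library alone.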

Additional observations from a re-analysis of the deposited data

How the results depend on the processing

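Depth limits the low end, since 1 CPM stands for 6.67 counts in replicate 1 and 7.6 in replicate 2. Other scalings were TMM, RLE, totals without mitochondrial and ribosomal protein genes and, added after seeing the data, a total without RN7SL genes. Every list's count of expressed members was the same under them. This was fixed in advance, since counts are whole numbers and 1 CPM asked for the same smallest count per library under each scaling. These settings thus do not test whether the counts of expressed members depend on scaling. Counting from 0.5 CPM gave 1 endothelial and 7 cancer testis genes, and counting from 2 CPM gave 3 epithelial genes and 1 Wnt ligand. Counting from 1 TPM gave 1 skeletal muscle gene. With any count above 0 in both libraries, 4 smooth muscle, 3 endothelial, 10 neuronal and neuroendocrine and 8 cancer testis genes passed. With either library alone, 0 to 1 endothelial genes and 4 to 9 cancer testis antigens passed, and replicate 1 gave the higher number for the cancer testis antigens and the endothelial genes. Without mitochondrial genes in the total, the 10 highest genes took 5.09% and the ribosomal protein genes 2.03% of counts. With the longest transcript as gene length, TPM of the 177 genes named by rule changed by 0.79 to 2.94-fold, 29 of them by over 1.5-fold, and the order of MERTK and FGFR1, of FGF5 and GRN, of ACKR3 and ADGRG1, of ZEB2 with SNAI1 and SNAI2, and of SLC3A2 and SLC39A6 turned. No paired analysis was possible because a single group was described. The cause of these changes was not tested beyond what each setting alters.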

Other observations

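Long noncoding RNAs held 3.01% and 3.19% of the counts of replicates 1 and 2. XIST was left out before these RNAs were put in order, and its level is not reported here. Among the others, SNHG16, a host gene of small nucleolar RNAs, came next after MALAT1, at 918 and 942 CPM. It was followed by NEAT1, the scaffold of paraspeckles, at 598 and 869 CPM. Then came LINC00511 at 207 and 337 CPM and NORAD, which binds PUMILIO proteins, at 296 and 243 CPM. NEAT1 and LINC00511 were higher in replicate 2, and SNHG16 was close between the libraries. These genes were chosen after their values were seen.

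Other nuclear protein-coding genes of high TPM that no list holds were chosen after their values were seen. HSP90AA1, an inducible chaperone, had 1701 ± 103 TPM, HSPB1, a small heat shock protein, 1035 ± 17.9 TPM, PSAP, the precursor of the lysosomal saposins, 1212 ± 75.5 TPM, EIF4EBP1, a repressor of cap-dependent translation, 1125 ± 169 TPM, and PYGB, a glycogen phosphorylase, 1084 ± 151 TPM. The ferritin chain FTH1 had 1697 ± 81.0 TPM, and 63.2% of its exon bases lie in exons of BEST1 on the other strand. TMSB10, which binds actin monomers, had 2180.4 ± 114 TPM.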
